A study of Rattus norvegicus with 18 samples.

Results

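The MEF2 transcription factors and the class IIa histone deacetylases that bind them were followed through depolarization and MEF2 knockdown in cultured rat hippocampal neurons. Members were all probe sets that the platform annotation assigns to Mef2a, Mef2c, Mef2d, Hdac4, Hdac5, Hdac7 or Hdac9, and each probe set was read separately. The rule gave 12 of 31099 probe sets, over 6 genes: 4 for Mef2a, 2 each for Mef2c, Mef2d and Hdac5, and 1 each for Hdac4 and Hdac7. Hdac9 was not analysed here. Of the 12, 11 were bright enough to be tested, which meant exceeding the 40th percentile of their own array on at least 3 arrays. The remaining one, Hdac5 1390438_at, read 77.8 to 115.6 and was above that percentile on 0 of 18 arrays.

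MEF2 proteins are MADS-box factors that bind an AT-rich DNA element, and in neurons they are known as activity-dependent regulators of genes that act at synapses. Class IIa deacetylases bind MEF2 and repress its targets. Calcium-dependent kinases phosphorylate these deacetylases, which are then held by 14-3-3 proteins and leave the nucleus, while the phosphatase calcineurin acts on MEF2 itself. Much of this control is therefore exerted on proteins, whereas the arrays measured RNA.

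The 18 Affymetrix arrays form 6 groups of 3 biological replicates. Dissociated hippocampal neurons received lentivirus on day 3 in vitro, carrying either control shRNAs (the control arm) or shRNAs to MEF2A and MEF2D (the MEF2 RNAi arm). On day 10, neurons of both arms were silenced for 1 h with the NMDA receptor antagonist AP5 and the sodium channel blocker TTX, and extracellular KCl was then applied at 55 mM for 0, 1 or 6 h. The 0 h groups were thus infected and silenced but not depolarized, and no uninfected group enters these comparisons. The labels do not say whether biological replicates came from separate animals or culture preparations, so p-values measure the spread between these samples. The sources used here do not give the shRNA sequences, or the position of the probe sets on the transcripts.

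Array medians lay between 240 and 248 signal units, and log2 signals of arrays of one group correlated at r = 0.994 to 0.998 over probe sets. Markers of several cell types were read, and being bright enough to be tested does not by itself show that a cell type was present. All 7 neuronal markers were bright enough to be tested, and their summed signals were 49303 to 55132 with control shRNAs and 46841 to 54569 with RNAi. So were all 5 astrocyte markers, at 25719 to 34716 with control shRNAs and 29981 to 37949 with RNAi. Of the oligodendrocyte-lineage markers 3 of 5 passed, and the sums were 6998 to 11802 and 7983 to 11697. Of the microglial markers 4 of 5 passed, with sums of 1035 to 1156 and 1021 to 1157. Of these 4, Csf1r, Itgam and Cd68 had median signals of 157, 160 and 178, below every array median, and Aif1 had 436. Of the muscle-type markers 3 of 4 passed, with sums of 1401 to 1637 and 1354 to 1482. Of the endothelial markers 1 of 5 passed, and Pecam1 read 43 to 52. In bulk RNA of this kind, fewer cells of a type and less RNA per cell cannot be told apart.

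Where the RefSeq promoter table (build GRCr8) had an entry, the 250 bases before the transcription start were searched on both strands for the MEF2 consensus element, for the sequences TGACG and TGACGTCA (the short and full cyclic AMP response elements) and for CACGTG (an E-box). Entries were found for 6 of the 7 listed genes, without Mef2c. The MEF2 consensus was present upstream of Mef2a and Hdac5 and of none of the other 4, against 991 of 33469 promoters in the table (2.96%). Both stretches are shown because Mef2a was a target of the shRNAs and Hdac5 had the largest response to depolarization among the members. They are written 5′ to 3′ on the coding strand, with the consensus match in capitals. Mef2a lies on the minus strand at chr1:130392163-130392412, and its match spans bases 40 to 31 before the start. Hdac5 lies on the minus strand at chr10:87688055-87688304, and its match spans bases 52 to 43 before the start.
Mef2a: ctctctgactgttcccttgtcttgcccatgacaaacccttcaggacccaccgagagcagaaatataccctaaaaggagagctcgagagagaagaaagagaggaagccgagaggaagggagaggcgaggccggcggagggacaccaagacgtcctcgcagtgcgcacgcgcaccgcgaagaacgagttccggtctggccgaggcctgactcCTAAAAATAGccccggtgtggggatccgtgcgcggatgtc
Hdac5: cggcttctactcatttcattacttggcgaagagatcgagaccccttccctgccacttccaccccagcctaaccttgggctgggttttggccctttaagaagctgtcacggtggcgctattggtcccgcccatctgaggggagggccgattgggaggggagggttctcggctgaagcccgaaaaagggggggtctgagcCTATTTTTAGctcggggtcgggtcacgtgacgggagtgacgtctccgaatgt
The Hdac5 stretch also held TGACG at bases 25 to 21 and 16 to 12 before the start, and CACGTG at bases 29 to 24, which overlaps the first of these. The short element occurred in 18.2% and CACGTG in 5.59% of all promoters in the table. Upstream of Hdac4, TGACG was found at bases 109 to 105 and 57 to 53. The full TGACGTCA was in none of the members' stretches and in 1.59% of all. These are matches of letters, and no binding was measured.

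Knockdown was examined first, in Mef2a. Its brightest probe set, 1383093_at, read 2001, 1800 and 1739 (replicates 1, 2 and 3) at 0 h in the control arm, 2331, 2121 and 2051 at 1 h, and 1534, 1807 and 1928 at 6 h. In the MEF2 RNAi arm the signals were 595, 620 and 596 at 0 h, 577, 593 and 549 at 1 h, and 451, 561 and 443 at 6 h. Every RNAi array was thus well below every control array at each time. The remaining signal was 32.8%, 26.5% and 27.6% of control at 0, 1 and 6 h, log2 differences of -1.61, -1.92 and -1.86 (SE 0.097, n = 3 against 3; limma adjusted p = 2.77e-07, 4.28e-08 and 6.67e-08). Signals include whatever background the deposited values retain, so these percentages are shares of signal and not of transcript.

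The probe set 1378360_at gave much the same picture of Mef2a. It read 611, 701 and 705 at 0 h, 961, 722 and 835 at 1 h, and 667, 686 and 688 at 6 h in the control arm. With RNAi it read 239, 258 and 229, then 239, 245 and 231, then 173, 255 and 170. The remaining signal was 36.0%, 28.6% and 28.8% of control. Over the 18 arrays its log2 signals followed those of 1383093_at at r = 0.991, a description of arrays that share the same groups.

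The other 2 Mef2a probe sets fell less. With control shRNAs 1392472_at read 252, 322 and 321 at 0 h, 544, 351 and 477 at 1 h, and 443, 326 and 494 at 6 h, and with RNAi 191, 169 and 166, then 146, 165 and 189, then 168, 166 and 162. It kept 59.1%, 36.9% and 39.9% of the control signal (log2 differences -0.76, -1.44 and -1.33, SE 0.16; limma adjusted p = 0.00557, 2.8e-05 and 7.22e-05). With control shRNAs 1393290_at read 446, 603 and 624 at 0 h, 775, 594 and 895 at 1 h, and 666, 584 and 575 at 6 h, and with RNAi 405, 369 and 351, then 395, 403 and 432, then 400, 421 and 385. The arms did not overlap at any time for either probe set. For 1393290_at the remaining signal was 67.8%, 55.1% and 66.2% of control, log2 differences of -0.56, -0.86 and -0.60 (SE 0.14; limma adjusted p = 0.0116, 0.000461 and 0.00746). Its call at 0 h was lost without control 0 h replicate 2 (limma adjusted p = 0.057) or replicate 3 (limma adjusted p = 0.0593).

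Whether probe sets of one gene differed in the RNAi effect was tested directly, on the difference of their log2 signals within each array, with the arms permuted within each time. The 5 pairs each set a gene's brightest probe set against another, and p-values were adjusted over the 5. The Mef2a effect by 1383093_at was larger than by 1393290_at by 1.12 on the log2 scale (a difference of -1.12) and than by 1392472_at by 0.62 (-0.62). Both had the smallest p that the exact two-sided permutation test allows, 0.00025 (adjusted p = 0.000417). Against 1378360_at the difference was -0.10 (exact permutation p = 0.107, adjusted p = 0.134).

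Mef2d, the other target, fell by 1 of its 2 probe sets. In the control arm 1398427_at read 380, 423 and 387 at 0 h, 410, 425 and 417 at 1 h, and 528, 591 and 521 at 6 h. With RNAi it read 264, 266 and 298, then 303, 339 and 295, then 337, 387 and 383. The arms did not overlap at any one time, although the RNAi arm at 6 h reached levels of the control arm at 0 h. The signal was 69.5%, 74.7% and 67.5% of control (log2 differences -0.52, -0.42 and -0.57, SE 0.078; limma adjusted p = 0.000331, 0.00166 and 0.000188).

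The other Mef2d probe set, 1369851_at, read 349, 325 and 358, then 321, 346 and 328, then 379, 381 and 340 with control shRNAs, and 318, 315 and 302, then 328, 325 and 346, then 338, 338 and 364 with RNAi. Its log2 differences of -0.14, 0.00 and -0.08 at 0, 1 and 6 h did not pass the test. The 2 probe sets differed from each other in the RNAi effect by -0.43 (exact permutation p = 0.00025, the smallest possible; adjusted p = 0.000417).

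Mef2c was not among the genes that the shRNA labels name. By its brighter probe set, 1372332_at, the control arm read 575, 625 and 706 at 0 h, 643, 674 and 714 at 1 h, and 1015, 999 and 1165 at 6 h. The RNAi arm read 510, 518 and 666, then 436, 550 and 580, then 753, 832 and 1006. The arms overlapped at 0 and 6 h and did not at 1 h. The log2 differences were -0.18, -0.38 and -0.30 (SE 0.13), and none passed at a single time (limma adjusted p = 0.442, 0.0627 and 0.150). The mean of the 3 times did, at -0.29 (81.9% of control, SE 0.076; limma adjusted p = 0.00793). With the replicate number as a block, the differences at 1 h and 6 h passed too (limma adjusted p = 0.00100 and 0.00567).

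The dimmer Mef2c probe set, 1373410_at, read 190, 203 and 280, then 242, 164 and 284, then 394, 295 and 571 with control shRNAs, and 198, 180 and 255, then 168, 173 and 243, then 305, 271 and 433 with RNAi. Its mean difference over the times was -0.20 and passed only with the replicate block (limma adjusted p = 0.34 without the block and 0.0139 with it). The 2 Mef2c probe sets differed in the RNAi effect by -0.09 (exact permutation p = 0.474).

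Among the deacetylases no probe set was called between the arms at any single time. Hdac5 1371819_at read 1543, 1279 and 1113 at 0 h with control shRNAs and 1244, 1420 and 1282 with RNAi, groups that overlapped. At 1 h it read 1335, 1284 and 1299 against 1509, 1589 and 1421, and at 6 h 3119, 3040 and 3199 against 2589, 2853 and 2693. The arms did not overlap at 1 h, where the RNAi arm was the higher, or at 6 h, where it was the lower. The log2 differences were 0.02, 0.20 and -0.20 (SE 0.093; limma adjusted p = 0.944, 0.167 and 0.171).

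Hdac4 1376761_at read 188, 221 and 247, then 247, 175 and 246, then 287, 291 and 302 with control shRNAs, and 255, 240 and 280, then 219, 242 and 271, then 304, 306 and 383 with RNAi. The arms overlapped at 0 and 1 h and did not at 6 h. The mean difference over the times was 0.19 (95% interval 0.02 to 0.35; limma adjusted p = 0.0833), and with the replicate block it passed (limma adjusted p = 0.0196). Hdac7 1375168_at lay between 237.5 and 293 on all 18 arrays and differed between the arms by 0.12, 0.07 and -0.05, none of which passed.

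In counts, 5 of the 11 tested probe sets were lower with RNAi at 0 h and none higher, where 6.02% of all 19567 tested probe sets were lower (13.3% called in either direction). At 1 h the count was 5 of 11, beside 8.73% lower and 15.1% called, and at 6 h it was 5 of 11, beside 8.02% lower and 15% called. Over the mean of the 3 times it was 6 of 11, beside 16.6% lower and 33.8% called. At each time the 5 were the 4 Mef2a probe sets and Mef2d 1398427_at, so they are readings of the 2 genes that the shRNAs were aimed at and not 5 separate genes. With the replicate block 5, 6 and 6 were lower at 0, 1 and 6 h, with Mef2c 1372332_at added at 1 and 6 h. Beside these, 9.75%, 13% and 12% of all tested probe sets were lower, and 22.6%, 23.8% and 23.9% were called. Over the mean the block gave 7 lower and 1 higher, with Mef2c 1373410_at and Hdac4 added. The shares of all tested probe sets were then 20.2% lower and 22.1% higher. The median log2 difference of the 11 was -0.18, -0.39 and -0.30 at 0, 1 and 6 h, beside 0.00, 0.01 and 0.01 over all tested probe sets. Summed astrocyte markers had a median of 34239 in the RNAi arm and 30555 in the control arm. Over the mean of the times 2 of 9 astrocyte probe sets were called higher, and of 11 neuronal probe sets 1 was higher and 3 lower. Among all tested probe sets 17.2% were higher and 16.6% lower in that comparison. The part of cell composition in the members' differences was not tested.

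**Figure D1:**
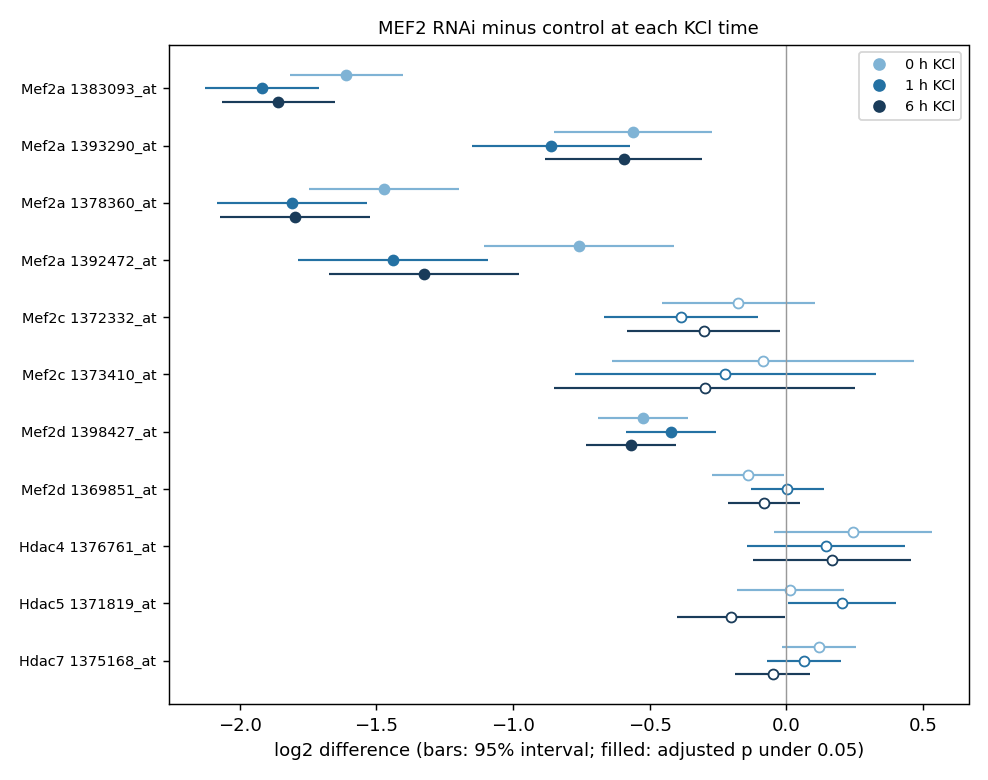
Log2 difference between the MEF2 RNAi and control arms (horizontal axis) for each tested member probe set at 0, 1 and 6 h of KCl, with 95% intervals from the limma fit and 3 arrays per group. All 4 Mef2a probe sets and Mef2d 1398427_at lie below 0 at each time, whereas Hdac5 lies between -0.20 and 0.20.

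Among the members the largest rise after 6 h of depolarization was that of the deacetylase Hdac5. In the control arm Hdac5 1371819_at went from 1543, 1279 and 1113 at 0 h to 3119, 3040 and 3199 at 6 h, and all 6 h arrays were above all 0 h arrays. The rise was 2.40-fold (log2 1.26, SE 0.093; limma adjusted p = 5.56e-08). In the RNAi arm it went from 1244, 1420 and 1282 to 2589, 2853 and 2693, a 2.06-fold rise (log2 1.04; limma adjusted p = 4.42e-07). At 1 h the differences were 0.01 with control shRNAs and 0.20 with RNAi (limma adjusted p = 0.996 and 0.34). The dim probe set Hdac5 1390438_at, which was not tested, had means of 91.8 ± 5.2 (SD, n = 3) at 0 h and 110.6 ± 4.4 (SD, n = 3) at 6 h in the control arm.

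Hdac4 rose 1.35-fold at 6 h in the control arm, from 188, 221 and 247 to 287, 291 and 302 (log2 0.43, SE 0.14; limma adjusted p = 0.0197). This call was lost without control 0 h replicate 1 (limma adjusted p = 0.0936) or without control 6 h replicate 3 (limma adjusted p = 0.0585). With RNAi the difference was 0.35, with all 6 h arrays above all 0 h arrays (limma adjusted p = 0.0536, and 0.0108 with the replicate block). It also passed with an added constant of 50 (limma adjusted p = 0.0475) and after quantile normalization (0.0358). The same held with the brightest probe set per gene (0.0486) and with only the groups compared (0.0455). Hdac7 stood at 0.03 with control shRNAs and -0.14 with RNAi (limma adjusted p = 0.0927 in the latter).

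Both Mef2c probe sets rose at 6 h in the control arm. By 1372332_at the rise was 1.67-fold (log2 0.74, SE 0.13; limma adjusted p = 0.000334), and no 6 h array was as low as any 0 h array. By 1373410_at it was 1.83-fold (log2 0.87; limma adjusted p = 0.0140), a call lost without control 0 h replicate 1 (limma adjusted p = 0.0536), control 0 h replicate 2 (limma adjusted p = 0.05002) or control 6 h replicate 3 (limma adjusted p = 0.0843). In the RNAi arm 1372332_at rose 1.53-fold (log2 0.61, limma adjusted p = 0.00167), and 1373410_at differed by 0.66 (limma adjusted p = 0.058, and 0.00011 with the replicate block). With only the groups compared, 1373410_at passed too (limma adjusted p = 0.0334).

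Mef2d 1398427_at rose 1.38-fold in the control arm (log2 0.46, SE 0.078; limma adjusted p = 0.000204) and 1.34-fold in the RNAi arm (log2 0.42; limma adjusted p = 0.000514). The other Mef2d probe set stood at 0.09 and 0.15, neither of which passed. After quantile normalization its RNAi-arm difference of 0.19 passed (limma adjusted p = 0.0251). The 6 h response differed between the 2 Mef2d probe sets by 0.32 (exact permutation p = 0.005, the smallest possible with 12 arrays; adjusted over 5 pairs 0.025). When arrays were exchanged only within the 6 pairs that share an arm and a replicate number, a test added after seeing the data, the exact permutation p was 0.03125, the smallest possible, and the adjusted p of 0.0781 did not pass. At that p a probe-set pair passes only if most of the others reach it too, so this test could hardly decide the question. The difference stayed between 0.28 and 0.36 when single arrays were left out or the values rescaled, but its adjusted permutation p was 0.05 or higher without control 6 h replicate 1 or 3, RNAi 0 h replicate 1, or any RNAi 6 h replicate.

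At 6 h the calls on the Mef2a probe sets were not alike, which by itself does not show that their responses differed. In the control arm 1392472_at rose 1.40-fold (log2 0.48, SE 0.16; limma adjusted p = 0.0280), whereas 1383093_at, 1393290_at and 1378360_at stood at -0.08, 0.14 and 0.02. The rise of 1392472_at was lost without control 0 h replicate 1 (limma adjusted p = 0.122), control 6 h replicate 1 (0.0877) or control 6 h replicate 3 (0.136). In the RNAi arm 1383093_at fell further, to 79.9% of its 0 h signal (log2 -0.32; limma adjusted p = 0.0156). That fall was lost without RNAi 6 h replicate 1 (limma adjusted p = 0.0662), RNAi 6 h replicate 3 (0.078) or RNAi 0 h replicate 2 (0.0528). In that arm 1378360_at did not pass (limma adjusted p = 0.0778), with log2 differences of -0.49 to -0.20 across the alternatives. The difference in the 6 h response between 1383093_at and 1392472_at was -0.40 (exact permutation p = 0.025, adjusted p = 0.0625). Against 1393290_at it was -0.32 (exact permutation p = 0.05, adjusted p = 0.0833), and against 1378360_at -0.06 (exact permutation p = 0.545, adjusted p = 0.545). The Mef2a probe sets were thus not shown to differ in the 6 h response.

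In counts, 6 of 11 member probe sets were higher at 6 h in the control arm and none lower, beside 15.9% higher, 21.7% lower and 37.6% called in either direction among all tested. In the RNAi arm 3 of 11 were higher and 1 lower, beside 14.7% higher, 21.8% lower and 36.4% called, and with the replicate block 5 were higher and 1 lower, beside 18.5% higher and 26.3% lower. Both comparisons have 0 h groups of their own and share none. The medians over the 11 were 0.43 and 0.15, beside 0.00 and 0.00 over all tested probe sets.

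**Figure D2:**
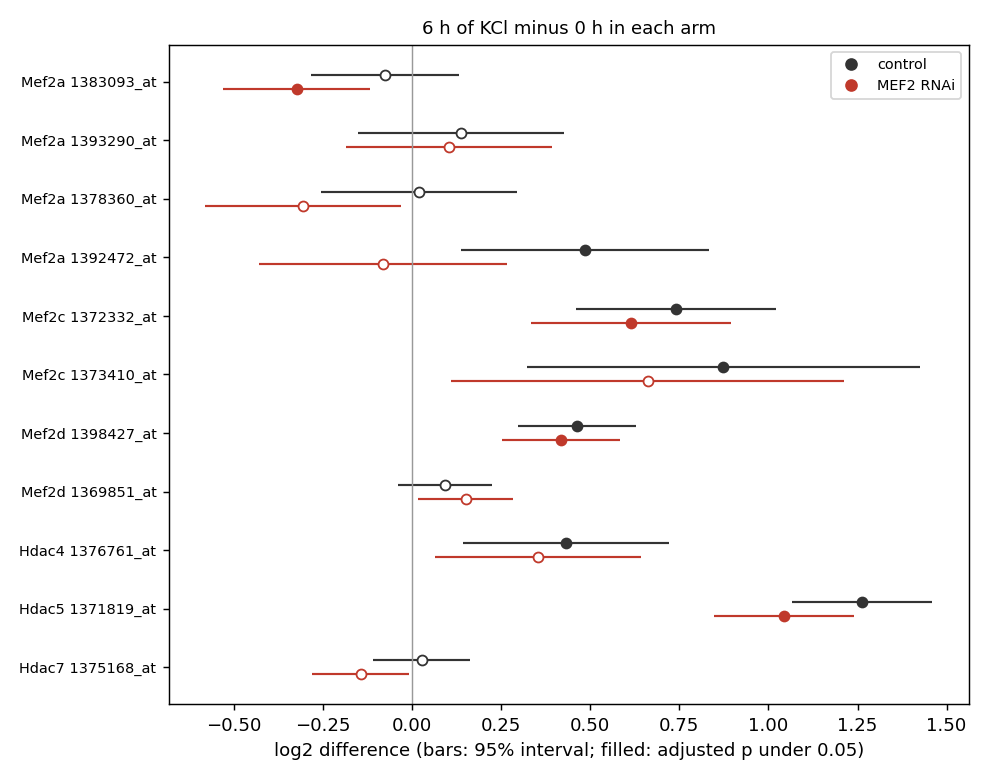
Log2 difference between 6 h and 0 h of KCl (horizontal axis) for each tested member probe set in the control and MEF2 RNAi arms, with 95% intervals from the limma fit; filled points have an adjusted p under 0.05. Hdac5 1371819_at lies farthest to the right in both arms, at 1.26 and 1.04, and the intervals of the 2 arms overlap for each probe set.

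At 1 h no member was called by limma in either arm, where 2.23% of all tested probe sets were called in the control arm and 3.19% in the RNAi arm. At an unadjusted p under 0.05 the counts were 4 of 11 and 1 of 11, beside 10.8% and 14.8% of all tested probe sets. The 4 were the 4 Mef2a probe sets, so they are readings of 1 gene. The control differences of Mef2a were all positive, at 0.60 for 1392472_at, 0.43 for 1393290_at, 0.31 for 1378360_at and 0.23 for 1383093_at. For 1392472_at the 1 h arrays did not overlap the 0 h arrays, and the 1.52-fold difference had a limma adjusted p of 0.0748, and of 0.0367 with the replicate block. Without control 1 h replicate 2, its adjusted p was 0.018 and that of 1393290_at was 0.0234.

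Whether RNAi altered a response to KCl was tested as an interaction, and no member passed at 1 h (0% of all tested probe sets called) or at 6 h (0.143% called). At an unadjusted p under 0.05 there were 2 of 11 at 1 h and 1 of 11 at 6 h, all of Mef2a, beside 3.53% and 8.12% of all tested probe sets. The largest was that of Mef2a 1392472_at, with -0.68 at 1 h (95% interval -1.17 to -0.19; unadjusted p = 0.00981, limma adjusted p = 1) and -0.57 at 6 h (95% interval -1.06 to -0.08; limma adjusted p = 0.518). For Hdac5 1371819_at the 6 h value was -0.22 (95% interval -0.50 to 0.06), for Mef2c 1372332_at -0.13 (95% interval -0.52 to 0.27), for Mef2d 1398427_at -0.04 (95% interval -0.28 to 0.19) and for Hdac4 -0.08 (95% interval -0.49 to 0.33). Both intervals of Mef2a 1392472_at, which are not adjusted for the number of probe sets, lay below 0. The intervals of the other members named here included 0 but left room for moderate differences. The responses of the arms were therefore not shown to be alike.

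**Figure D3:**
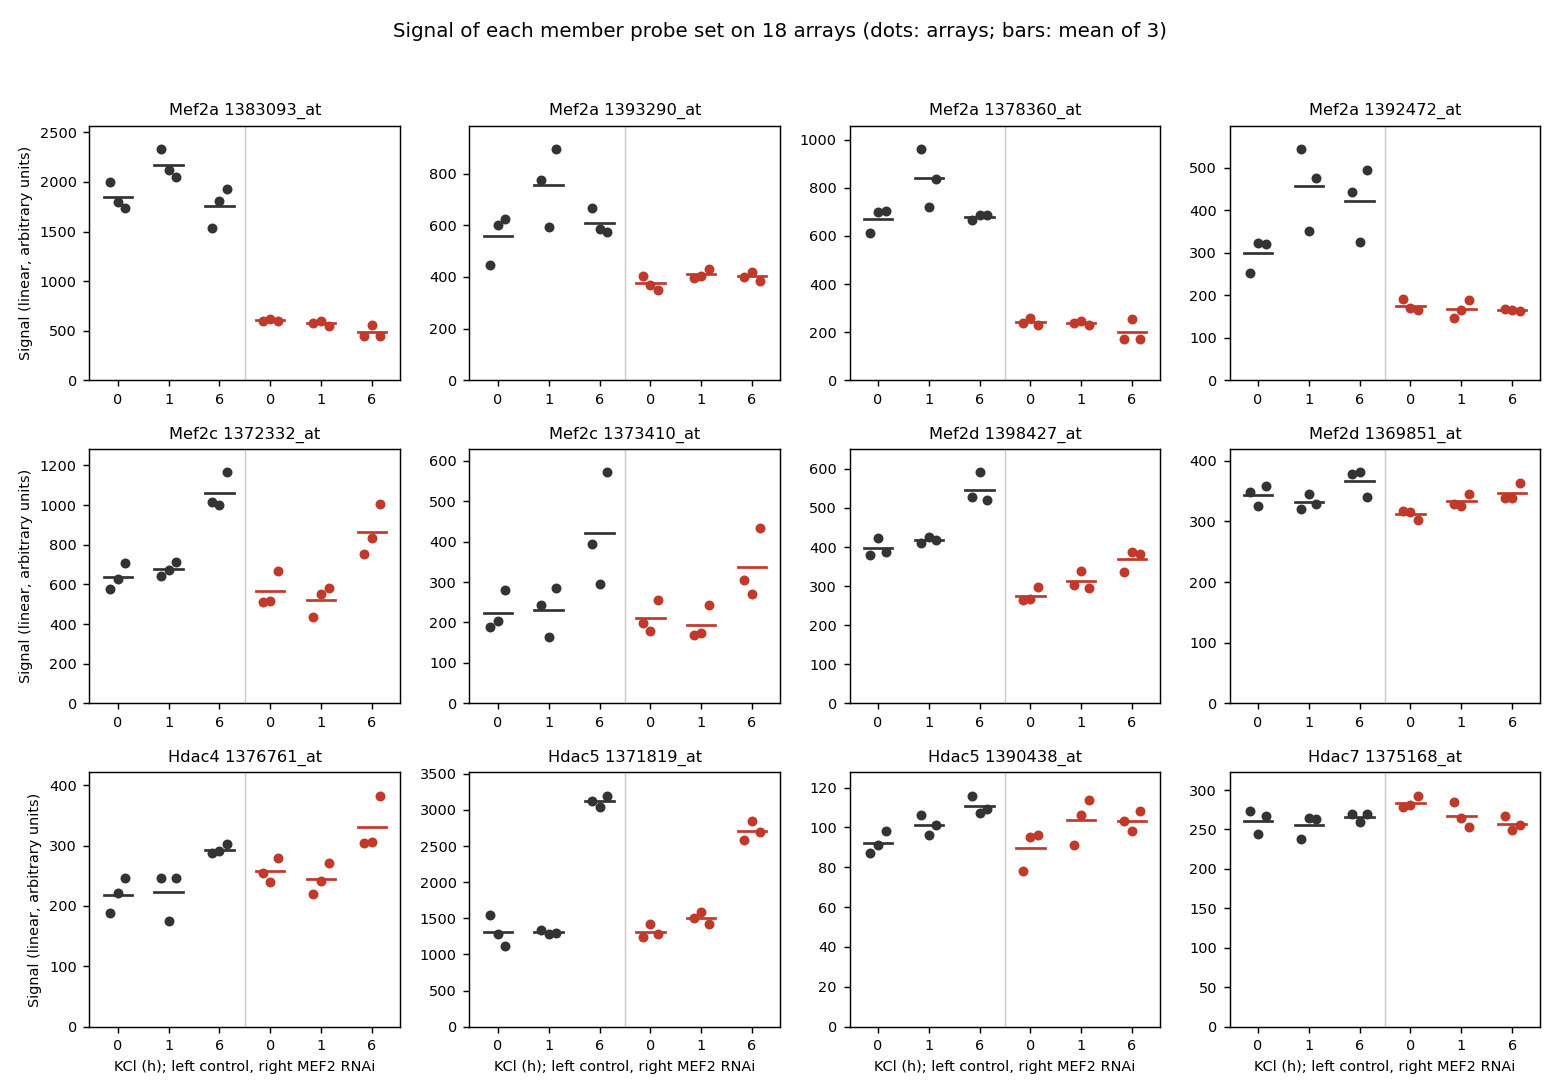
Signal of each member probe set on every array (vertical axis, linear, starting at 0) by hours of KCl (horizontal axis), with the control arm on the left and the MEF2 RNAi arm on the right of each panel; dots are arrays and bars are means of 3. The Mef2a panels are separated by arm at every time, while the Hdac5 1371819_at panel is separated by time, with all 6 h arrays above all 0 h and 1 h arrays.

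Mef2c and Hdac4 also varied with the replicate number that arrays of different groups share. Replicate 3 was above its group's mean on 6 of 6 arrays for Mef2c 1372332_at, Mef2c 1373410_at and Hdac4, by 0.17, 0.37 and 0.15 on the log2 scale on average. The replicate number held 81.2%, 86.7% and 51.0% of their variance within groups, beside a median of 33.8% over all tested probe sets. The 2 Mef2c values exceeded those of 94.3% and 97.6% of tested probe sets, and that of Hdac4 exceeded 68.6%. For Mef2d 1398427_at it held 45.1%, which exceeded 62.4% of tested probe sets. There replicate 1 was above its group's mean on 0 of 6 arrays, and replicate 2 on 5 of 6. In contrast Mef2d 1369851_at had 0.27% and Mef2a 1393290_at 5.8%. Summed neuronal markers were 51140 to 54569 in replicate 3, 46841 to 55132 in replicate 1 and 50048 to 52869 in replicate 2, so replicate 3 overlapped the others. Summed oligodendrocyte-lineage markers were 7983 to 8320 in replicate 3, all below the 9833 to 11802 of replicate 1, and 6998 to 10218 in replicate 2. Astrocyte sums were 29785 to 37949 in replicate 3, 30673 to 37576 in replicate 1 and 25719 to 31542 in replicate 2. In the same order, microglial sums were 1028 to 1157, 1035 to 1139 and 1021 to 1156, endothelial sums 362 to 417, 353 to 440 and 360 to 415, and muscle-type sums 1354 to 1637, 1379 to 1550 and 1399 to 1569. The part of cell composition in the pattern was not tested.

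**Figure D4:**
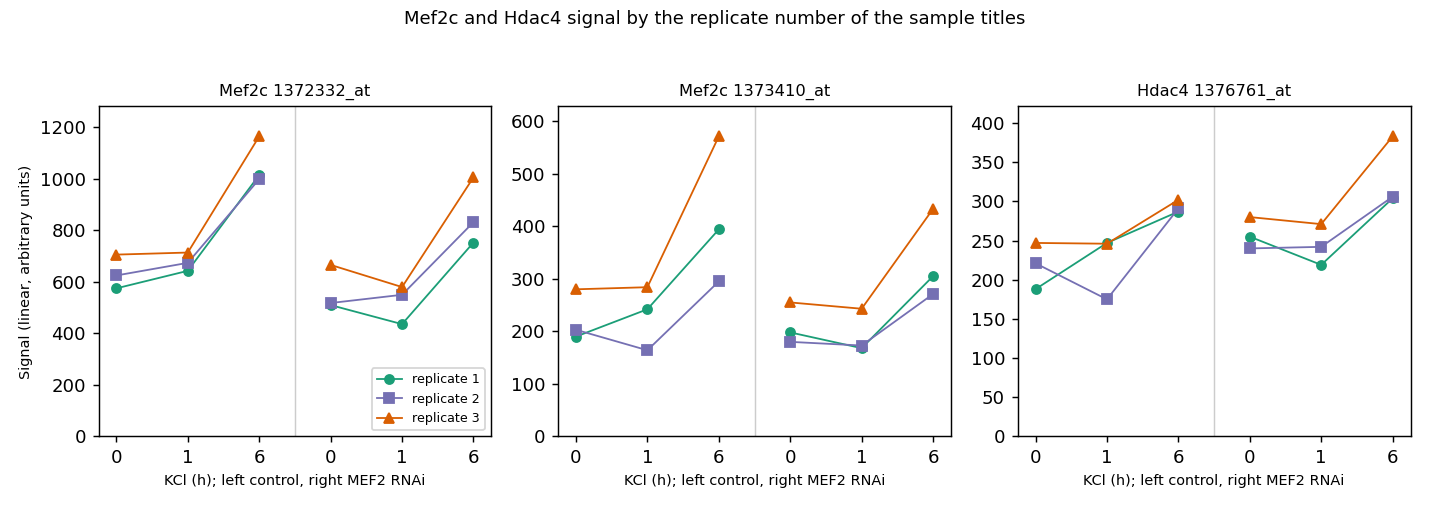
Signal (vertical axis, linear, starting at 0) of both Mef2c probe sets and Hdac4 by hours of KCl (horizontal axis), control arm left and MEF2 RNAi arm right, with 1 line per replicate number; lines join arrays that share a number. Replicate 3 lies above its group's mean in all 6 groups for each probe set shown.

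The genes with the most similar pattern were found by Pearson's r of log2 signals over the 18 arrays, among 10834 genes; the arrays share groups, so r mostly follows group differences. For Mef2a 1383093_at they were Gabbr2, which encodes a GABA-B receptor subunit (r = 0.972), Hdgfl3 (0.971) and Rimkla (0.963). For Mef2d 1398427_at they were the palmitoyltransferase gene Zdhhc2 (0.960), Cystm1 (0.951) and Ttc3 (0.948). For Mef2c 1372332_at they were the transporter gene Slc6a17 (0.953), Kcmf1 (0.949) and Arxes1 (0.944). Hdac5 1371819_at was nearest to the chaperone gene Hspa4l (0.974), the chromatin remodeller Chd2 (0.974) and Kitlg, which encodes the ligand of KIT (0.972). Hdac4 was nearest to Ext1 (0.939), Ormdl3 (0.915) and Sh3gl1 (0.915). Hdac7, which was called in no comparison, had lower best values, with P3h3 (0.834), Vars1 (0.781) and Hsd3b7 (0.740).

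Kinases reported to phosphorylate class IIa deacetylases were examined next, from a list of 16 genes of which 14 were tested, by 25 probe sets. At 6 h of KCl 10 probe sets were higher and 1 lower in the control arm, and 9 higher and 1 lower in the RNAi arm. Of all tested probe sets 15.9% were higher and 21.7% lower with control shRNAs, and 14.7% and 21.8% with RNAi. The list's median difference was 0.22 and 0.25, beside 0.00 and 0.00 over all tested probe sets. At 1 h the salt-inducible kinase Sik1 was the only one called, by probe set 1368596_at. Its mean went from 1010 ± 67 (SD, n = 3) to 2268 ± 644 in the control arm, a 2.18-fold rise (log2 1.12, SE 0.19; limma adjusted p = 0.00379), and rose 2.55-fold in the RNAi arm (limma adjusted p = 0.000619). Its other probe set, 1368597_at, was not called at 1 h. At 6 h the rises of 1368596_at were 2.05-fold and 1.94-fold. Sik3 rose at 6 h by 2 probe sets, 1374030_at and 1383379_at, 1.91-fold and 2.75-fold in the control arm and 1.52-fold and 1.92-fold in the RNAi arm. For Camk2a, 1389824_at and 1381637_at rose at 6 h in the control arm (1.51-fold and 1.58-fold), and 1388187_at stood at 0.25 on the log2 scale (limma adjusted p = 0.0773, and 0.031 with the replicate block). For Camk2d in the control arm, 1368834_at rose 1.34-fold and 1368833_at stood at -0.02. With RNAi 1368834_at averaged 1589 ± 49 at 0 h and 2078 ± 191 at 6 h (SD, n = 3 each).

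Sik2, a kinase of the same family, was the list's largest difference between the arms. Its probe set 1376649_at averaged 2605 ± 511, 2577 ± 222 and 3379 ± 83 (SD, n = 3 each) at 0, 1 and 6 h with control shRNAs. With RNAi it averaged 1321 ± 72, 1256 ± 58 and 2168 ± 248 (SD, n = 3 each). At 0 h the arms spanned 2255 to 3192 and 1242 to 1383. The log2 differences were -0.96, -1.03 and -0.65 (SE 0.11; limma adjusted p = 3.89e-05, 1.98e-05 and 0.00119). Its other probe set, 1394434_at, was lower by less, with -0.36 at 0 h (limma adjusted p = 0.0409) and -0.19 and -0.31 at 1 and 6 h, which did not pass. With the replicate block its 6 h difference passed (limma adjusted p = 0.0436). Camk2b 1375575_at, a subunit of calcium/calmodulin-dependent kinase II, was lower in the RNAi arm at all 3 times, by -0.20, -0.31 and -0.36, while Camk2b 1398251_a_at stood at -0.06, -0.34 and -0.58 and passed only at 6 h. Camk2a 1388187_at was lower by -0.46 at 1 h and -0.41 at 6 h, but 1389824_at (-0.14 and -0.28) and 1381637_at (-0.19 and -0.13) did not pass. Over the list, 3, 4 and 4 of 25 probe sets were lower at 0, 1 and 6 h, and 1, 0 and 0 higher, the 1 being Sik3 1374030_at at 0.32. Among all tested probe sets 6.02%, 8.73% and 8.02% were lower, and 13.3%, 15.1% and 15% were called.

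Of the corepressor partners and 14-3-3 chaperones, 11 of 12 genes were tested by 20 probe sets. At 6 h of KCl Hdac3, the catalytic deacetylase of the NCoR complex, was 0.25 and 0.27 higher in the control and RNAi arms (limma adjusted p = 0.0279 and 0.0191). Tbl1xr1 1394107_at, a subunit of that complex, was lower by -0.79 and -0.80. The other 3 Tbl1xr1 probe sets did not pass: 1389545_at stood at -0.29 and -0.11, 1379309_at at 0.06 and 0.11, and 1394079_at at 0.05 and -0.03. With the replicate block the control difference of 1389545_at passed (limma adjusted p = 0.0115). Another subunit of the complex, Gps2, was 0.42 higher with RNAi than with control shRNAs at 0 h (limma adjusted p = 0.000596). It was not called between the arms at 1 or 6 h, and its 6 h means were 404 with control shRNAs and 397 with RNAi. Tbl1xr1 1394107_at was lower with RNAi at 1 h (-0.44, limma adjusted p = 0.0207). Between the arms 1, 1 and 0 of 20 probe sets were called at 0, 1 and 6 h, beside 13.3%, 15.1% and 15% of all tested. For 6 h against 0 h of KCl, 1 of 20 probe sets was higher and 1 lower with control shRNAs, and 1 was higher and 2 lower with RNAi. Of all tested probe sets 37.6% and 36.4% were called there. The medians were 0.04 and -0.04.

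Enzymes and coactivators that act on MEF2 comprised 13 genes, all tested, by 21 probe sets. At 6 h of KCl 2 probe sets were higher and 5 lower in the control arm, and 1 higher and 7 lower in the RNAi arm, with medians of -0.08 and -0.11. The 7 and 8 of 21 called stand beside 37.6% and 36.4% of all tested probe sets. Mapk7, which encodes the MEF2 kinase ERK5, was lower, at -0.56 with control shRNAs and -0.46 with RNAi. The calcineurin subunit gene Ppp3cc was lower by -0.73 in the control arm, and the calcineurin inhibitor gene Cabin1 by -0.21 and -0.39 in the control and RNAi arms. With RNAi the mean signal of Ppp3cc 1398469_at was 151 ± 13 at 0 h and 115 ± 8.6 at 6 h (SD, n = 3 each). Probe sets of the acetyltransferase gene Crebbp disagreed in both arms. In the control arm 1382264_at stood at 0.99, 1380027_at at 0.63 and 1399104_at at -0.58, all called. With RNAi 1382264_at stood at 0.81 and 1399104_at at -0.54, both called, and 1380027_at at -0.12, which did not pass. With RNAi, Cabin1 was higher at 0 h and 1 h (0.29 and 0.26) and Ppp3cc lower (-0.31 and -0.43).

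Deacetylases of other classes were measured by 10 probe sets of 7 genes. At 6 h of KCl 1 probe set was higher, that of Hdac3, and 3 were lower in the control arm, all of Hdac10 (-0.37, -0.22 and -0.32), beside 15.9% higher and 21.7% lower among all tested. In the RNAi arm 1 was higher, again that of Hdac3, and 4 lower, beside 14.7% and 21.8%. The 4 were Hdac10 1380608_at (-0.38), Hdac10 1390700_s_at (-0.46), and Hdac2 and Hdac6, each at -0.25. The medians were -0.13 and -0.08. Between the arms 1 probe set was called at a single time, Hdac2 1370908_at at 1 h (-0.22; limma adjusted p = 0.0462). Among all tested probe sets 13.3%, 15.1% and 15% were called between the arms at 0, 1 and 6 h. No probe set of any of these 4 lists passed the interaction at 1 h or 6 h by limma, and at an unadjusted p under 0.05 the lists held 0, 2, 0 and 0 at 1 h and 4, 2, 3 and 0 at 6 h, in the order given and of 25, 20, 21 and 10 probe sets. The shares over all tested probe sets were 3.53% and 8.12%.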

How the data were processed

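The values are linear probe-set intensities from the authors' deposited table of the 18 arrays. Per the labels' protocols, RNA was extracted with the RNeasy Micro Kit and biotin-labelled cRNA was made by Affymetrix procedures. The sources used here do not name the software that summarized and normalized the signals. All 18 columns were mapped to samples.

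The table's 20th percentile (72.6) served as a floor before the log2 transform. Group means of all 18 arrays were fitted with limma 3.58.1 (lmFit, eBayes, 12 residual degrees of freedom) in R 4.3.3 over the 19567 probe sets above their array's 40th percentile on at least 3 arrays, with two-sided Benjamini-Hochberg adjustment over all of them and calls at 0.05. On simulated data for the control 6 h comparison over 19567 probe sets, 93% of 100 changes of 1 log2 unit and 100% of 100 changes of 2 were recovered, and 4.93% of calls were false. The simulated noise was independent between arrays, without a part shared by replicate number, and changes were placed only in brighter probe sets. These rates therefore need not hold for the real arrays.

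Gene names come from the platform annotation: 20832 probe sets have 1 symbol, 436 several and 9831 are not listed. Replicate numbers pair the arrays: deviations from group means correlated at 0.104 to 0.718 in all 45 same-number pairs (median 0.423) and at a median of -0.197 in 90 others. The negative median is not separate evidence of pairing. Deviations within a group cancel out, so positive same-number correlations force negative ones elsewhere. The main fit and the main permutation tests did not use the replicate number, which entered only in the alternatives. No 2 arrays were identical. The number of arrays limits the precision.

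Members and lists were chosen with earlier results of these data known. Every member probe set is described. From each list, up to 4 genes per comparison with the smallest adjusted p among those called could be named, by any probe set, and the 3 genes nearest in pattern were named for each member. Alternatives were another floor, an added constant of 50, no filter, quantile normalization, the brightest probe set per gene, only the groups compared, the replicate block and leaving out each array.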

Additional observations from a re-analysis of the deposited data

How the results depend on the processing

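Of the 31 called member differences, 245 of 258 recomputations without 1 array and 231 of 234 under the other alternatives kept the call and its direction. Of the 79 not called, 661 of 666 and 583 of 596 stayed uncalled. No called value changed sign. The replicate block gave 1 called member for 1 h of KCl in the control arm, against 0 without it, and 6 against 4 for 6 h in the RNAi arm; beyond the values given in the results, it changed no other member's call. With 1 probe set per gene, 2, 2, 2 and 3 of 6 genes were called for RNAi at 0, 1 and 6 h and over their mean, since 3 Mef2a probe sets were then left out. Leaving out 1 array gave 0 to 2 called for 1 h and 3 to 6 for 6 h of KCl in the control arm (3 without control 0 h replicate 1 or control 6 h replicate 3), 0 and 3 to 6 in the RNAi arm, 4 to 5, 5 and 5 for RNAi at 0, 1 and 6 h, 6 for their mean, and 0 for both interactions. Probe-set pairs that differed numbered 3 throughout for RNAi, and 0 to 2 for 6 h of KCl, against 1 with all arrays. With arrays exchanged only within pairs that share a replicate number, an alternative chosen after seeing the data, they numbered 3 for RNAi and 0 for 6 h of KCl. For 6 h of KCl the smallest possible exact permutation p was 0.03125. After adjustment over 5, a probe-set pair at that p passes only if most of the others reach it too. The 0 therefore does not show that no pair differed. The rise of Mef2a 1392472_at at 6 h in the control arm was lost without the filter (limma adjusted p = 0.0676) and with only the groups compared (0.0658). The fall of Mef2a 1383093_at at 6 h in the RNAi arm was lost after quantile normalization (limma adjusted p = 0.0505). The cause was not tested. Hdac5 1390438_at was too dim to be tested, and no depth is defined for arrays.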
